A study of Mus musculus with 11 samples.

Results

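The 41 genes described here encode proteins of the lysosome and the transcription factors that drive their synthesis. They were chosen by name, as 11 cathepsins, 10 glycan-degrading enzymes, 6 other proteins of the lysosomal lumen, 7 membrane proteins, 4 subunits of the proton pump and the 3 MiT factors Tfeb, Tfe3 and Mitf. All 41 were found among the 53465 genes of the count table, and all 41 passed the filter on low counts that left 14117 genes for testing. RNA was sequenced from quadriceps muscle of aged mice of the strain written C57L/6JRj in the labels. Mice of both groups were 18 months old when treatment began and were treated for 10 weeks, either with myriocin (6 libraries) or with DMSO as the control (5 libraries). Myriocin inhibits serine palmitoyltransferase, the enzyme that opens the synthesis of ceramide and other sphingolipids, and the design asks how the RNA of old muscle differs under it. The sources used here give neither the dose or route of myriocin nor the sex of the mice. Nor do they state that the libraries are from separate mice, so p-values measure the spread between these libraries, which may be technical.

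The lysosome is the acidic compartment in which cells break down proteins, glycans and lipids that arrive by endocytosis or autophagy. Its hydrolases work at the low pH that the V-type proton pump keeps up, and heavily glycosylated membrane proteins line it from within. TFEB, TFE3 and MITF bind short E-box sequences in the promoters of many of these genes, and mTORC1 at the lysosomal surface holds the factors in the cytoplasm while nutrients are plentiful. In muscle fibres the best known lysosomal enzyme is acid alpha-glucosidase, the product of Gaa, whose loss leads to glycogen storage in Pompe disease. Muscle also holds macrophages, which are rich in cathepsins.

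The E-box that MiT factors bind has the core CACGTG and, in its extended form, the palindrome TCACGTGA. Both were searched for in the RefSeq promoter windows of build GRCm38.p6, which run from 250 bases before to 50 bases after each annotated start and were found for 36 of the 41 genes. Both words read the same on either strand, and each TCACGTGA contains a CACGTG. The core was present for 13 of the 36 genes (36.1%), against 2187 of 27025 genes (8.09%) with a window in the whole table. The palindrome was present for 6 of the 36 (16.7%), against 304 of 27025 (1.12%). The related word TCATGTG, searched for on both strands, was present for 6 of the 36 (16.7%), against 1165 (4.31%). High shares were not particular to the 41 genes. Of 74 genes with a window in the pathway lists described below, 18 (24.3%) had the core. The palindrome was present for 7 (9.46%) of those 74 and TCATGTG for 8 (10.8%). The genes of the whole table were not matched to the members for level or base composition. The members were chosen as lysosomal genes, many of them already known to be bound by MiT factors, so these shares are a description and no test. A match describes the letters in the window and is no measurement of binding.

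The stretches below carry these matches, read 5′ to 3′ on the strand of the gene, with the E-box in capitals. The first 6 are those with the palindrome. Lamp1 is shown for its row of 4 cores, Gaa as the muscle glucosidase, and Ctsf because it had the lowest fold change of the 41 genes.
Ctsa (cathepsin A), chr2:164833749-164833778, plus strand: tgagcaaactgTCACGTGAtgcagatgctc
Ctsd (cathepsin D), chr7:142387908-142387937, minus strand: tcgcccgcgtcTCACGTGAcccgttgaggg
Cln3 (membrane protein of Batten disease), chr7:126583340-126583369, minus strand: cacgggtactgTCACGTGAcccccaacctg
Mcoln1 (lysosomal calcium channel), chr8:3500462-3500491, plus strand: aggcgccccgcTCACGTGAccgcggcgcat
Atp6v0d1 (proton pump subunit), chr8:105566050-105566079, minus strand: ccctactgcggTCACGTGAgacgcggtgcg
Atp6v1a (catalytic proton pump subunit), chr16:44139368-44139407, minus strand: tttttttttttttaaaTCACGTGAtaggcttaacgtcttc
Lamp1 (membrane glycoprotein), chr8:13159092-13159157, plus strand: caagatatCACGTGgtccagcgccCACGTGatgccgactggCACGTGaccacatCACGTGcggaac
Gaa (acid alpha-glucosidase), chr11:119267806-119267845, plus strand: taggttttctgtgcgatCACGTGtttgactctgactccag
Ctsf (cathepsin F), chr19:4855069-4855108, plus strand: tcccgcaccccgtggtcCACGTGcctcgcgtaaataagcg

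The palindromes shown for Ctsa and Atp6v0d1 began 13 and 4 bases before the start, and those of Mcoln1, Ctsd, Cln3 and Atp6v1a began 46, 99, 122 and 132 bases before it. Ctsa held a second palindrome, with its core 5 bases after the start. This second palindrome begins in the last bases of the stretch shown, left there in lower case, and runs on beyond it. The cores of Lamp1 began 61, 45, 28 and 15 bases before the start. In the GENCODE M21 models, the stretches of Lamp1, Gaa, Ctsf and Atp6v0d1 lie upstream of the gene, that of Atp6v1a in an intron, and those of Ctsa, Ctsd, Cln3 and Mcoln1 in untranslated exon sequence of a longer transcript. By class, the core was present for 4 of 9 cathepsins with a window, 4 of 10 glycan-degrading enzymes, 3 of 6 membrane proteins, both pump subunits with a window, 0 of 6 other lumenal proteins and 0 of the 3 MiT factors. The 5 genes without a matched window were Ctsb, Ctsh, Npc1, Atp6v1b2 and Atp6v1h.

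**Figure D1:**
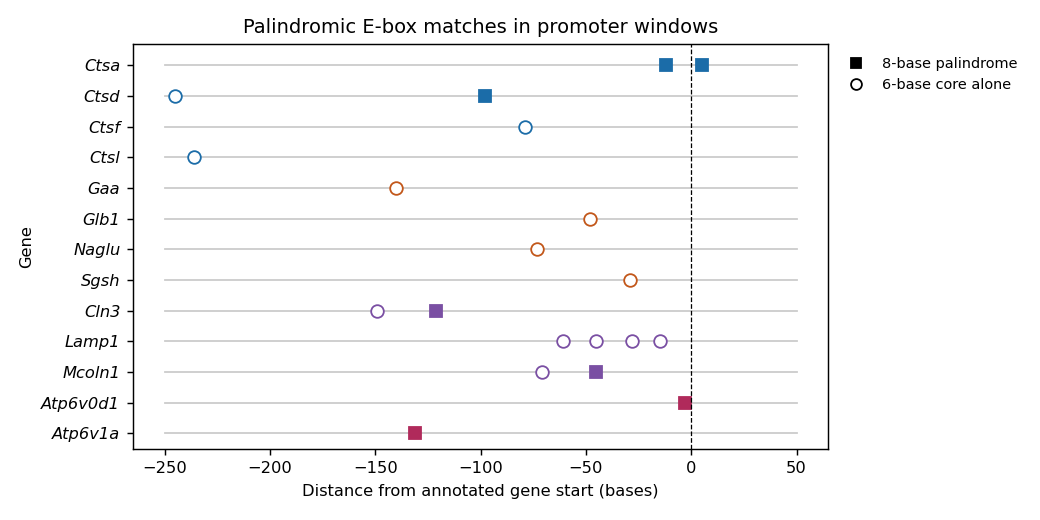
Position of each E-box match (x axis, bases from the annotated gene start, negative values before it) in the promoter windows of the 13 genes that hold one (y axis). Filled squares are matches to the 8-base palindrome and open circles the 6-base core alone, and colours give the class of the gene. Lamp1 holds 4 cores within 61 bases of its start, and the 2 pump subunits each hold a palindrome.

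The libraries were of even depth. Between 22241131 and 23163721 reads were assigned to genes, so that 3 counts correspond to 0.130 to 0.135 CPM (counts scaled to a common library total) and no gene among the 41 came near this floor. The tissue label was met by its markers: 6 genes of skeletal muscle fibres summed to between 130207 and 164337 CPM. Some libraries stood apart by RNA of other tissues. Liver genes summed to between 107 and 128 CPM in DMSO replicates 4 and 5 and in myriocin replicate 4, against 6.403 to 30.2 CPM elsewhere. DMSO replicate 2 had 451.3 CPM of neutrophil genes (1.10 to 63.2 elsewhere) and 1213 CPM of adipocyte genes (142.0 to 432.9 elsewhere). Markers of slow and oxidative fibres differed widely as well, with Myh7 between 1.08 and 145.1 CPM. The mean log2 CPM of these slow fibre markers ran from 2.77 in myriocin replicate 3 to 6.95 in DMSO replicate 2. Counts are those of the authors, and levels are given as CPM of the gene total. For comparison between genes they are divided by the length of the coding transcripts in kilobases. In bulk tissue, fewer cells of a type and less RNA per cell cannot be told apart.

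Per kilobase, the lysosomal genes spanned from 1.07 CPM for Sgsh to 356.5 CPM for Psap. Psap, the precursor of the saposins that help to break down sphingolipids, stood first, with 368.0 ± 16.5 CPM per kilobase under DMSO and 347.0 ± 17.1 under myriocin (SD, n = 5 and 6). The lysosomal membrane glycoprotein Lamp1 (168.4 over all 11 libraries) and the aspartic protease Ctsd (131.7) followed, then Gaa (114.3), the tetraspanin Cd63 (89.1) and the cysteine protease Ctsb (78.8). After these 6 genes came a wide gap: the membrane receptor Scarb2, which carries glucocerebrosidase to the lysosome, had 28.4 CPM per kilobase. When the length of all annotated exons was used instead, the first 4 genes kept this order and Cd63 and Ctsb changed places.

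Tfeb was the most abundant of the 3 MiT factors, with 27.4 CPM per kilobase, against 3.78 for Tfe3 and 2.78 for Mitf. Ranked per kilobase, Tfeb was 8 of 41. The melanocyte genes Tyr, Dct, Pmel, Mlana and Tyrp1, fixed as a check because MITF is the master factor of that lineage, never reached 1 CPM, and Tyr was at 0 in every library.

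**Figure D2:**
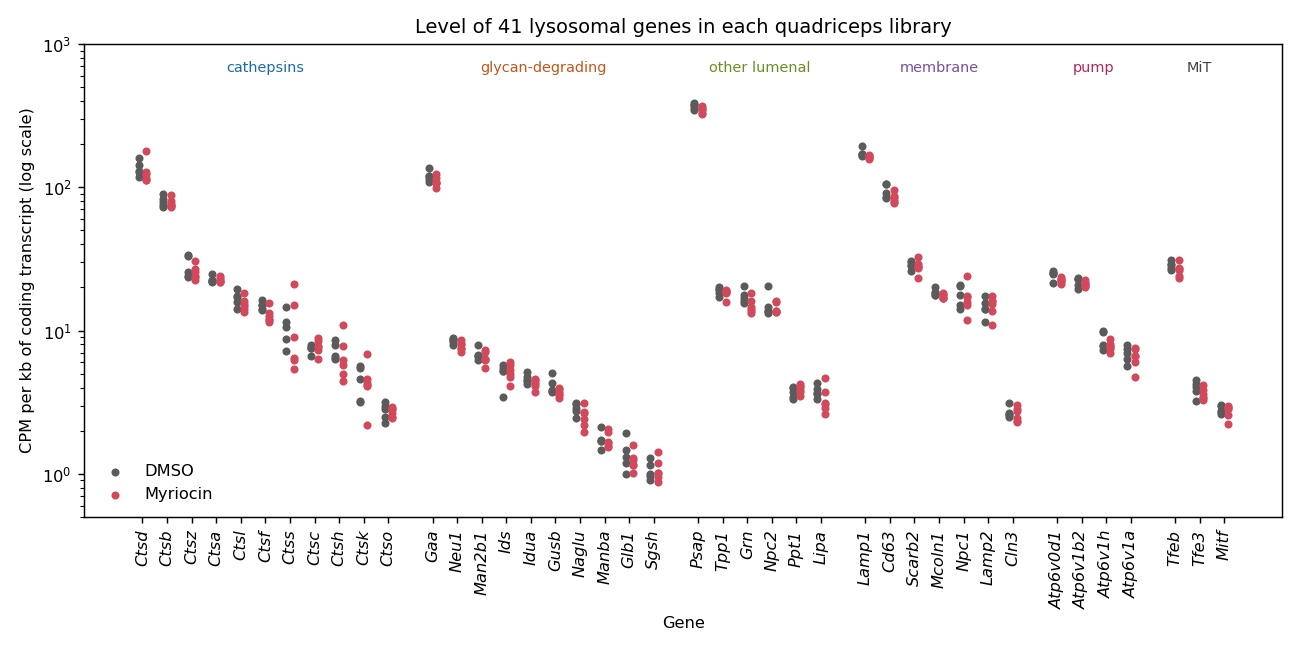
Level of each of the 41 genes (x axis, grouped by class and ordered by level) in CPM per kilobase of coding transcript on a log scale (y axis), with 1 point for each of the 5 DMSO and 6 myriocin libraries. Psap, Lamp1, Ctsd and Gaa are the 4 highest, the points of the groups overlap for each gene, and Ctss is the most widely spread.

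None of the 41 genes passed the test between myriocin and DMSO. With edgeR's quasi-likelihood test and Benjamini-Hochberg adjustment over all 14117 genes, 0 members were called, and 0.936 was their lowest adjusted p. Before adjustment, too, 0 of 41 had a p under 0.05. Over all genes edgeR called 0 (0%) at the adjusted threshold and 660 (4.68%) at an unadjusted p under 0.05, of which 331 (2.34% of genes tested) were lower with myriocin. DESeq2 called 6 genes and limma-voom 0, and neither called a member. For 0 of the 41 genes did the CPM ranges of the groups stand clear of each other, which held for 85 (0.602%) of all genes.

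Fold changes of the 41 genes were small. They lay between -0.18 for Ctsf and 0.11 for Ppt1 on the log2 scale around a median of -0.04, and 28 of the 41 were below 0. Over all genes tested the median was -0.01 and 7587 (53.7%) were below 0, with the 5th percentile at -0.32 and the 95th at 0.27. The median width of the 95% interval to either side was 0.18 for the 41 genes and 0.25 for all genes. The intervals of all 41 lay within a log2 difference of 1, and those of 39 within 0.5. The exceptions were the macrophage cathepsin Ctss (-0.80 to 0.88) and the bone-resorbing cathepsin Ctsk (-0.51 to 0.55). Without scaling beyond library totals, 35 of the 41 values were below 0, and so were 64.7% of all genes.

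**Figure D3:**
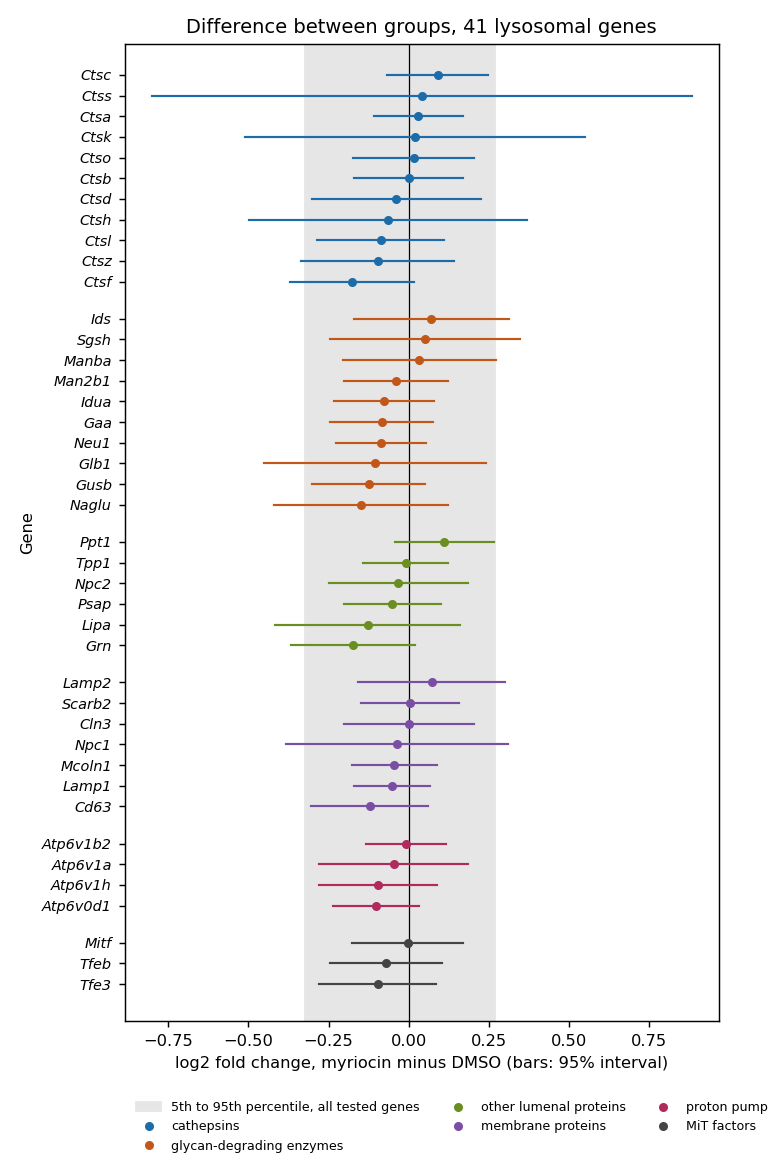
Log2 fold change of each gene, myriocin minus DMSO (x axis, points), with its 95% interval (bars), for the 41 genes by class (y axis). The grey band spans the 5th to 95th percentile of all tested genes, from -0.32 to 0.27. Every interval crosses 0, and those of Ctss and Ctsk reach beyond 0.5.

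Of the MiT factors, none passed the test. Tfeb had 109.0, 125.2, 105.5, 114.8 and 117.7 CPM in DMSO replicates 1 to 5, and a lowest, median and highest value of 92.8, 106.9 and 124.3 CPM under myriocin. The ranges overlapped, with the second highest of the 11 values in a myriocin library. Myriocin replicates 1 and 5, at 95.9 and 92.8 CPM, lay below every DMSO library. Its log2 fold change was -0.07 (SE 0.08, 95% interval -0.25 to 0.11), with 5 of 6 myriocin libraries below the DMSO mean. Tfe3, its close relative on the X chromosome, had 15.4, 16.4, 14.6, 13.8 and 11.7 CPM under DMSO and 11.8, 12.7 and 15.2 CPM as lowest, median and highest under myriocin. The lowest of all 11 values was in a DMSO library, and the log2 fold change was -0.10 (SE 0.09). Mitf had 16.1, 13.9, 15.9, 14.7 and 14.4 CPM under DMSO against 11.9, 15.3 and 15.8 CPM. The myriocin median lay above the DMSO mean of 14.98 CPM, and the log2 fold change of -0.003 (SE 0.08) took either sign when a library or the filter was changed.

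The cathepsins are proteases named by letter, most of them cysteine proteases, with Ctsd an aspartic and Ctsa a serine protease. Of the 11, 5 had a fold change below 0 and 6 above, for a median of 0.000, and 0 passed the test. Cathepsin D, the most abundant per kilobase, had 249.3, 302.8, 274.9, 270.8 and 341.3 CPM under DMSO. Under myriocin its lowest, median and highest values were 239.8, 254.5 and 380.1 CPM. The highest value of all came from myriocin replicate 6, while the other 5 myriocin libraries stayed at or below 272.5 CPM, and the log2 fold change was -0.04 (SE 0.12). By GENCODE, 34.4% of the exon length of Ctsd is shared with Gm49369, a gene model on the same strand. Reads there may have been set aside as ambiguous, which would lower the level of Ctsd. The summary line for ambiguous reads held 6.46% to 7.73% of reads per library.

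Ctsf had the lowest fold change of the 41 genes. Its values were 28.2, 29.7, 30.1, 27.7 and 32.2 CPM under DMSO (29.6 ± 1.78, SD, n = 5) and 22.8, 24.6 and 30.8 CPM as lowest, median and highest under myriocin (25.5 ± 2.91, n = 6). All but 1 of the myriocin libraries lay below every DMSO library, and the exception, replicate 4 with 30.8 CPM, was above all but 1 of them. The log2 fold change was -0.18 (SE 0.09, 95% interval -0.37 to 0.02), with an edgeR adjusted p of 0.936. Without myriocin replicate 4 it was -0.25, with an adjusted p of 0.391 by edgeR, and over all alternatives the adjusted p ran from 0.391 to 0.9995. Ctsc, which trims and activates serine proteases of immune cells, had 40.3, 42.1, 40.2, 40.9 and 35.3 CPM under DMSO and 33.9, 41.3 and 47.4 CPM under myriocin. The myriocin libraries enclosed the DMSO range on both sides, and the log2 fold change was 0.09 (SE 0.07).

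The other cathepsins were spread over a wide range of levels. Ctsb averaged 378.8 ± 31.0 CPM under DMSO and 369.5 ± 27.2 under myriocin, and Ctsl, a major protease of autophagy in muscle, 103.3 ± 12.1 and 94.7 ± 10.4. The carboxypeptidase Ctsa averaged 83.5 ± 4.61 and 83.3 ± 3.30 CPM, and the carboxypeptidase Ctsz 40.4 ± 7.18 and 36.8 ± 4.26. At the low end stood Ctss, Ctsh, Ctso and Ctsk, between 6.6 and 14.4 CPM in the mean of either group. In Ctsl, 26.9% of exon length overlaps an antisense gene and a pseudogene on the same strand. In Ctsa 17.4% overlaps Pltp and Neurl2 on the opposite strand, and in Ctsb 12.8% overlaps Fdft1, also on the opposite strand. The same holds outside the cathepsins for Sgsh, the lowest gene per kilobase, where 21.6% overlaps Card14. The sources used here do not say whether the counting used strand, and reads of these partners may not have been told apart. Strand could not separate the pseudogene from Ctsl.

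The glycan-degrading enzymes remove sugars or sulfate groups from glycogen, glycoproteins and glycosaminoglycans. Of the 10, 7 had a fold change below 0 and 3 above (median -0.08), and 0 passed the test. Gaa stood far above the rest: its 114.3 CPM per kilobase compared with 8.14 for the sialidase Neu1, the next in order. Under DMSO it had 486.5, 486.7, 463.8, 554.1 and 441.3 CPM. Under myriocin the lowest, median and highest values were 401.6, 439.0 and 502.1 CPM. The groups overlapped over most of their ranges, and the log2 fold change was -0.08 (SE 0.07, 95% interval -0.24 to 0.08).

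Gusb, the beta-glucuronidase, had the smallest p of this class. It measured 14.4, 18.9, 14.3, 13.9 and 16.2 CPM under DMSO and 12.8, 13.8 and 14.9 CPM as lowest, median and highest under myriocin. Each of the 6 myriocin libraries was under the DMSO mean of 15.6 CPM, which DMSO replicates 2 and 5 raised, and the log2 fold change was -0.12 (SE 0.08). Neu1 had 20.6, 21.3, 22.0, 21.6 and 19.8 CPM against 17.6, 19.3 and 21.4 CPM, with 5 of 6 myriocin libraries below the DMSO mean. Its log2 fold change was -0.09 (SE 0.07), within the spread of the libraries. The enzymes of heparan and dermatan sulfate breakdown Sgsh, Naglu, Ids and Idua averaged 4.64, 7.33, 25.0 and 16.3 CPM under DMSO and 4.70, 6.44, 25.6 and 15.1 CPM under myriocin. The mannosidases Man2b1 and Manba averaged 26.1 and 6.41 CPM under DMSO and 24.7 and 6.402 CPM under myriocin. Glb1, the beta-galactosidase whose activity at raised pH is used to stain senescent cells, was among the lowest genes, with 3.30 ± 0.85 CPM under DMSO and 2.98 ± 0.47 under myriocin.

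Among the other lumenal proteins, 5 of 6 fold changes lay below 0 and 1 above (median -0.04), and 0 passed the test. Psap had 1029, 945.1, 981.8, 1038 and 1056 CPM under DMSO and 895.1, 951.9 and 1019 CPM as lowest, median and highest under myriocin. DMSO replicates 2 and 3 lay within the myriocin range, and the log2 fold change was -0.05 (SE 0.07). Grn, the precursor of the granulins, had 37.9, 48.3, 36.6, 41.5 and 39.5 CPM under DMSO and 31.2, 33.5 and 43.0 CPM under myriocin. Its log2 fold change of -0.17 (SE 0.09, 95% interval -0.37 to 0.02) was the lowest after Ctsf. Myriocin replicates 1 and 6 lay within the DMSO range, replicate 1 with the second highest value of all, and the edgeR adjusted p was 0.936. Ppt1, which removes palmitate from proteins and is mutated in an infantile storage disease of neurons, had the highest fold change of the 41 genes. Its values were 13.8, 14.0, 13.0, 11.99 and 11.6 CPM under DMSO and 12.1, 13.7 and 14.6 CPM under myriocin, with a log2 fold change of 0.11 (SE 0.07). The cholesterol carrier Npc2 averaged 49.9 and 47.4 CPM, the peptidase Tpp1 66.9 and 64.9 CPM and the acid lipase Lipa 11.2 and 9.97 CPM in the DMSO and myriocin groups.

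The membrane proteins showed no common direction: 4 of 7 fold changes lay below 0 and 3 above (median -0.04), and 0 passed the test. Lamp1 had 368.2, 431.9, 376.9, 381.9 and 381.7 CPM under DMSO and 352.7, 366.0 and 375.4 CPM as lowest, median and highest under myriocin. The myriocin libraries were close together (364.9 ± 8.04, SD, n = 6) and all below the DMSO mean of 388.1, but DMSO replicate 1 lay among them. The log2 fold change was -0.05 (SE 0.06, 95% interval -0.17 to 0.07). Cd63, a tetraspanin of lysosomes and exosomes, had 124.0, 152.7, 121.9, 132.3 and 154.0 CPM under DMSO and 113.0, 121.4 and 138.4 CPM under myriocin. Its log2 fold change was -0.12 (SE 0.09), and DMSO replicates 2 and 5 stood highest. Lamp2, the membrane protein lost in Danon disease of heart and muscle, averaged 73.5 ± 10.9 CPM under DMSO and 75.2 ± 11.5 under myriocin. Scarb2 averaged 134.8 and 132.0 CPM, the cholesterol exporter Npc1 92.6 and 88.2 CPM, the calcium channel Mcoln1 38.1 and 36.0 CPM and Cln3 9.05 and 8.82 CPM in the DMSO and myriocin groups.

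All 4 proton pump subunits had a fold change below 0 (median -0.07), and 0 passed the test. Atp6v0d1, of the membrane sector, had 35.2, 40.9, 42.8, 40.9 and 40.7 CPM under DMSO and 34.2, 36.6 and 38.4 CPM as lowest, median and highest under myriocin. The other 4 DMSO libraries lay above every myriocin library, while replicate 1 lay among them, and the log2 fold change was -0.10 (SE 0.06, 95% interval -0.24 to 0.03). Without DMSO replicate 1 it was -0.15, with an adjusted p of 0.855 by edgeR, within a range of 0.621 to 0.9995 over the alternatives. Atp6v1h, a regulatory subunit of the catalytic sector, had 17.1, 21.7, 21.3, 17.2 and 15.9 CPM under DMSO and 15.2, 16.9 and 19.1 CPM under myriocin. Its log2 fold change was -0.10 (SE 0.09), with both high values in DMSO replicates 2 and 3. The catalytic subunit Atp6v1a and the non-catalytic subunit Atp6v1b2 of the same sector averaged 29.3 and 61.8 CPM under DMSO and 27.7 and 59.9 CPM under myriocin.

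**Figure D4:**
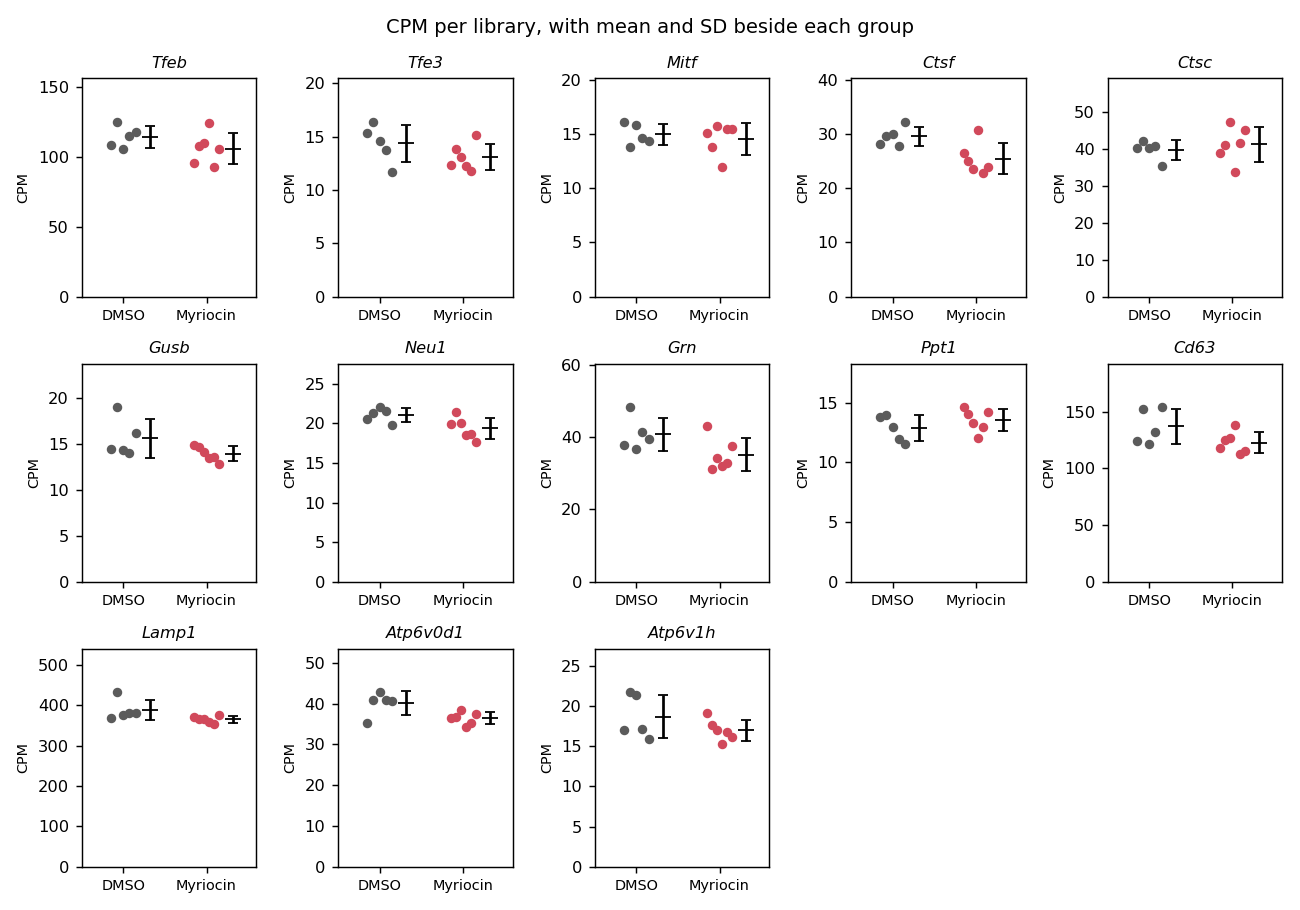
CPM of the 13 genes named with a fold change (1 panel each, y axis from 0) in each DMSO and myriocin library, with the mean and SD beside each group. The groups overlap in every panel, and Ctsf has a single myriocin library, at 30.8 CPM, above the others.

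The summed level of the 41 genes was 3975.7 ± 100.02 CPM under DMSO (SD, n = 5) and 3758.7 ± 120.9 CPM under myriocin (n = 6). Each of the 6 myriocin libraries was under the mean of the 5 DMSO libraries, but the ranges overlapped (3847 to 4095 and 3593 to 3892 CPM). These sums are shares of the library totals without further scaling, under which 64.7% of all genes had a fold change below 0, and Psap is their largest term. In the same shares, skeletal muscle fibre genes summed to 140128 ± 9829 CPM under DMSO and 150693 ± 7498 under myriocin. There 0 myriocin libraries lay below the DMSO mean. With TMM scaling, the median log2 deviation of the 41 genes from the DMSO mean averaged -0.003 over DMSO and -0.064 over myriocin libraries (pooled SD 0.051). Single libraries also weighed on the extremes. DMSO replicate 2 held the highest value of 15 of the 41 genes and the lowest of 0, and myriocin replicate 4 the lowest of 14 and the highest of 1. DMSO replicate 2 is the library with 451.3 CPM of neutrophil genes, and myriocin replicate 4 is among those with liver RNA. The skeletal muscle fibre genes also had their lowest sum in DMSO replicate 2 (130207 CPM) and their highest in myriocin replicate 4 (164337 CPM). The 20 most abundant genes of each library held 33.2% and 37.4% of its counts, the lowest and highest shares of all libraries. The part of these differences in the sums and extremes was not tested.

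The E-box counts can be set beside these values. The 13 genes with a CACGTG core had a median log2 fold change of -0.05 with 10 below 0, and the 23 genes with a window but no core had -0.03 with 14 below 0. The median level was 15.99 CPM per kilobase with a core and 7.63 without one, and the ranges, 1.07 to 168.4 and 1.74 to 356.5, overlapped widely.

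Between libraries, most of the genes varied little. The coefficient of variation over all 11 libraries was 4.48% for Ctsa and 5.21% for Mcoln1, with a median of 11.4%, against 45.6% for Ctss, 29.7% for Ctsk and 26.3% for Ctsh. Ctss, the cathepsin that trims the invariant chain of MHC class II in macrophages and related cells, had 9.80, 15.7, 14.5, 11.8 and 19.9 CPM under DMSO and 7.29, 10.54 and 28.9 CPM as lowest, median and highest under myriocin. Both the lowest and the highest library were in the myriocin group, replicates 4 and 1. Ctsh had 10.8, 13.9, 10.4, 10.3 and 12.9 CPM under DMSO and 7.25, 9.66 and 17.8 CPM under myriocin, again with replicates 4 and 1 at the ends.

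Ctsh, Ctss and Man2b1 correlated with the macrophage markers of the libraries. A macrophage level was taken as the mean log2 CPM of 12 marker genes, among them Csf1r, Cd163 and C1qa, and it was lowest in myriocin replicate 4 (2.56) and highest in myriocin replicate 1 (3.86). All 12 markers were detected in every library, and their summed level ran from 198.1 to 341.3 CPM under DMSO and from 144.8 to 332.9 CPM under myriocin, with 0 of the 12 past the edgeR test between the groups and 0 at an unadjusted p under 0.05. Over the 11 libraries, 3 of the 41 genes correlated with it after Benjamini-Hochberg adjustment over 123 relations (41 genes with the macrophage, fibroblast and slow fibre lists). They were Ctsh (Pearson's r = 0.903, permutation p = 2.3e-04, Spearman's rho = 0.736, p = 0.012), the mannosidase Man2b1 (r = 0.874, permutation p = 4.9e-04, rho = 0.836, p = 0.0022) and Ctss (r = 0.858, permutation p = 6.4e-04, rho = 0.818, p = 0.0031). The adjusted permutation p of r was 0.026 for each, and those of rho, from 0.126 to 0.306, did not pass.

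The relation was carried in part by the ends of the range. Without the libraries farthest from the median, myriocin replicates 1 and 4, r was 0.735 for Ctsh, 0.820 for Man2b1 and 0.677 for Ctss. Within the 6 myriocin libraries r was 0.984, 0.901 and 0.985. Within the 5 DMSO libraries it was 0.209 for Ctsh and -0.006 for Ctss, and only Man2b1 kept a high value there, 0.953. With group means removed, r was 0.908, 0.880 and 0.857. Of 41 genes, 33 had a positive r with the macrophage level, with a median of 0.26, and Lamp2 (0.783) and Grn (0.741) came next without passing the adjustment. No gene passed with the fibroblast list, where 4 had an unadjusted permutation p under 0.05, or with the slow fibre list, where 1 did. The 4 of the fibroblast list were Ctsh (r = 0.71), Ctss (0.70), Ctsk (0.63) and Cln3 (-0.62), and Man2b1 had 0.42. Within the 6 myriocin libraries, r with the fibroblast list was 0.91 for Ctsh, 0.89 for Ctss and 0.92 for Man2b1. Within DMSO it was 0.16, 0.17 and -0.78. High values among myriocin libraries were thus not particular to the macrophage list, and which cells carry them was not tested. The number of relations past the threshold fell from 3 to 0 without any 1 of DMSO replicates 1, 3 and 4. The same held without any 1 of myriocin replicates 1, 2, 4, 5 and 6. For Ctsh, Ctss and Man2b1, r with the macrophage level still stayed between 0.758 and 0.972.

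**Figure D5:**
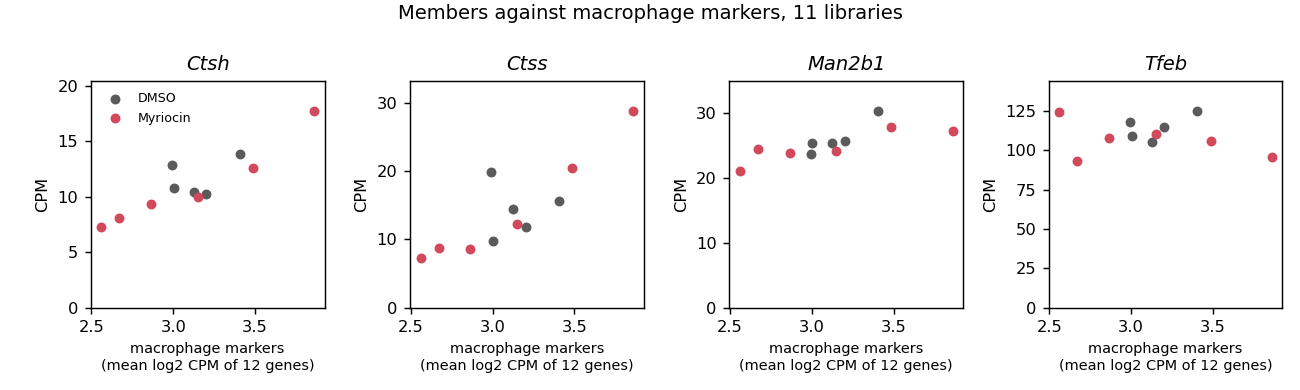
CPM of Ctsh, Ctss, Man2b1 and Tfeb (y axes, from 0) against the mean log2 CPM of 12 macrophage genes (x axes) in 5 DMSO and 6 myriocin libraries. Ctsh, Ctss and Man2b1 are higher where the macrophage genes are higher, with myriocin replicate 1 at the right end (3.86), while Tfeb is shown as a gene without such a relation.

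Genes around the 41 members were taken from 6 lists of the same pathway, and 0 of their genes passed the edgeR test at an adjusted p under 0.05. At an unadjusted p under 0.05 there were 4 in all out of 94 tested (4.26%), each lower with myriocin. Over all genes the share was 4.68% in either direction and 2.34% lower with myriocin. Among 25 other lysosomal hydrolases, 14 fold changes were below 0 and 11 above (median -0.01), and the unadjusted calls were Plbd2 and Hexa. Plbd2, a phospholipase-like protein of the lumen, had 63.4, 57.3, 63.8, 60.1 and 64.7 CPM under DMSO and 52.3, 54.0 and 56.8 CPM as lowest, median and highest under myriocin. Its groups did not overlap, which held for 1 of the 94 genes tested and for 85 (0.602%) of all genes. The log2 fold change of Plbd2 was -0.16 (SE 0.06), with an edgeR adjusted p of 0.936. Hexa, the alpha subunit of beta-hexosaminidase, averaged 67.1 ± 8.55 and 57.5 ± 4.01 CPM, with a log2 fold change of -0.18 (SE 0.08).

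Of 19 other membrane proteins 18 were tested, with 13 fold changes below 0 and 5 above (median -0.01) and 0 unadjusted calls. The smallest p values were those of Tmem192 (log2 fold change -0.13, SE 0.09) and Ostm1 (-0.09, SE 0.07), the partner of the chloride transporter Clcn7. Lamp3 did not pass the filter, with at most 0.090 CPM. Of 16 other pump subunits 14 were tested, with 10 below 0 and 4 above (median -0.04), led by Atp6v0e (-0.16, SE 0.08) and Atp6ap2 (-0.13, SE 0.09). The subunits Atp6v1b1 and Atp6v0d2, known from kidney and from osteoclasts, did not pass the filter and reached at most 0.088 and 1.12 CPM.

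Of 13 genes that sort enzymes to the lysosome, 6 fold changes lay below 0 and 7 above (median 0.01). Nagpa, which uncovers the mannose 6-phosphate tag, averaged 11.7 ± 0.84 and 9.96 ± 0.87 CPM (log2 fold change -0.20, SE 0.08, unadjusted p = 0.024 and adjusted p = 0.936 by edgeR), and the adaptor Gga1 had a log2 fold change of -0.09 (SE 0.05). Of 21 genes that control MiT factors at the lysosome, among them mTORC1, the Rag GTPases, folliculin and calcineurin, 11 were below 0 and 10 above (median -0.005). The Rag GTPases Rragd, at 297.1 ± 26.7 CPM under DMSO and 315.9 ± 37.8 under myriocin (log2 fold change 0.12, SE 0.09), and Rragc, at 28.3 ± 2.85 and 26.1 ± 1.14 CPM (-0.08, SE 0.06), had the smallest p values of this list. All 3 cathepsin inhibitors tested had a fold change below 0 (median -0.19). Cstb, which blocks cysteine cathepsins in the cytosol, averaged 6.58 ± 1.08 CPM under DMSO, where replicate 2 had 8.45 CPM, and 5.47 ± 0.28 under myriocin (log2 fold change -0.23, SE 0.10), and Cst6 had a log2 fold change of -0.19 (SE 0.13).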

How the data were processed

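Quadriceps RNA was measured in 11 libraries, 5 of DMSO and 6 of myriocin, grouped by the labels. The authors deposited raw counts per Ensembl gene. The submitters' processing notes name STAR 2.5.2b, HTSeq 0.6.0 and GRCm38, and give neither the annotation release nor the strand setting. Of 53470 lines, 5 were summary lines holding 24.8% to 28.2% of reads and were left out, and 53360 of 53465 identifiers matched GENCODE M21, which gave symbols and lengths. No 2 libraries of a group were copies (chi-square per degree of freedom 8.91 to 48.9).

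The test was edgeR 4.0.16 (R 4.3.3) on the counts (filterByExpr with a minimum count of 10 and total of 15, TMM, robust quasi-likelihood F test, treatment as the factor, 2-sided), with Benjamini-Hochberg adjustment over 14117 genes and a threshold of 0.05. Depth was 22241131 to 23163721 counts per library. SE was back-calculated from the F statistic. Levels are plain CPM, and correlations used TMM-scaled log2 CPM with a prior count of 2 and 100000 resamples. The fitting was tested on simulated data. Molecular identifiers are not mentioned in the labels, so reads may include PCR copies. Intervals cover the spread between libraries as fitted.

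The members and gene lists were chosen with earlier results of these data known. The rule for named genes took the MiT factors, the 2 smallest p values in each other class, the highest gene per length of each class and the 2 smallest p values of each pathway list. The fold changes of Ctsd, Gaa and Psap, named for their level, were added. Myriocin values are given as lowest, median and highest. Ctss and Ctsh were added for their spread. Alternatives were other scalings (DESeq2 size factors, upper quartile, none), other filters, DESeq2 1.42.0, limma-voom 3.58.1, each library left out, the 3 libraries with liver RNA left out, mitochondrial and the 20 most abundant genes left out, and the replicate number as a block. Medians by class were added after the data were seen.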

Additional observations from a re-analysis of the deposited data

Results flagged for a closer look

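Over the 41 genes and both groups, 82 sets of 5 or 6 values were checked for a library far from the others of its group, measured by the gap to its neighbour over the range of the group. Chance flags about 1 in 20 groups, which is 4.1 of 82, and 9 were flagged. The 9 shared libraries, since all genes were read from the same 11 libraries.

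DMSO replicate 2 stood above its group for 3 genes. Lamp1 had 431.9 CPM there, against 368.2 to 381.9 in the other DMSO libraries, Npc2 had 67.3 CPM against 43.5 to 48.2, and Cln3 had 10.54 CPM against 8.36 to 8.96. This is also the library with 451.3 CPM of neutrophil genes and 1213 CPM of adipocyte genes. Its sum of skeletal muscle fibre genes, 130207 CPM, was the lowest of all libraries. The part of these differences in the values was not tested.

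DMSO replicate 5 stood apart for 3 further genes. Ctsa was higher, at 91.6 CPM against 80.3 to 82.3, Ctsc lower, at 35.3 CPM against 40.2 to 42.1, and Ids lower, at 17.2 CPM against 25.8 to 28.6. DMSO replicate 1 was low for Atp6v0d1, at 35.2 CPM against 40.7 to 42.8. In the myriocin group, replicate 6 was high for Ctsd, at 380.1 CPM against 239.8 to 272.5, and replicate 4 was low for Tpp1, at 56.0 CPM against 65.1 to 68.6.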

How the results depend on the processing

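Under every alternative run, 0 of the 41 genes passed the adjusted threshold. Over all genes DESeq2 called 6, and edgeR under its other settings and limma-voom called 0. At an unadjusted p under 0.05 the count over all genes was 1167 without a filter (3.98% of the 29286 genes then tested, against 4.68% of 14117) and 1022 without the 3 libraries with liver RNA, and it ran from 493 to 1449 when each library was left out, the highest without myriocin replicate 4. Among the 41 genes that count rose from 0 to 3 without scaling (Ctsf, Grn and Atp6v0d1), to 1 without the libraries with liver RNA (Ctsf), and ran from 0 to 2 when each library was left out (Atp6v0d1 without DMSO replicate 1, Grn without DMSO replicate 3, Grn and Lipa without myriocin replicate 1, Ctsf and Cd63 without myriocin replicate 4). Without scaling, 646 genes were lower and 145 higher at an unadjusted p under 0.05, against 331 and 329 with TMM, and the median of all genes moved from -0.01 to -0.05. With the replicate number as a block over 10 libraries, 0 genes were called, 509 had an unadjusted p under 0.05, and the 41 genes had 29 fold changes below 0. The block changed no call. Numbers did not pair the libraries: deviations of same-numbered libraries correlated between -0.13 and 0.09, and 0 of 10 libraries correlated best with their own number.

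Between 25 and 35 of the 41 fold changes were below 0 and their median lay between -0.08 and -0.03 over all alternatives. The fold change of Mitf took the other sign without a filter (0.001) and without the libraries with liver RNA (0.038), and ran from -0.046 to 0.039 when each library was left out. The other named genes kept their direction throughout. The median of the cathepsins ran from -0.15 to 0.05 when each library was left out, the lowest without myriocin replicate 1. The number of correlations past the threshold was 1 without scaling and ran from 0 to 4 when each library was left out. The causes were not tested. The lowest level among the 41 genes, 2.38 CPM for Glb1, stood above the 0.135 CPM of 3 counts, and the part of depth in the intervals was not tested.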
